A study of Homo sapiens with 14 samples.

Results

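The mRNAs described here encode the proteasome. They were chosen by symbol, as every gene of the count table whose symbol is PSM followed by 1 letter from A to G and a number. Earlier results of these data were known when this choice was made. The rule gave 48 of 58434 symbols. PSMA8 and PSMB11, whose proteins belong to testis and thymus proteasomes, had 0 counts in all 14 libraries, and the other 46 passed the filter on low counts in every comparison. By textbook roles the 46 comprised 17 members of the 20S core, 17 of the 19S regulatory particle, 7 assembly chaperones and related factors, 4 activators and 1 inhibitor.

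The proteasome is the protease that degrades most ubiquitin-tagged proteins of the cytosol and nucleus. Its 20S core is a barrel of alpha and beta rings with the active sites inside, and its 19S particle has a base of ATPases that unfold substrates and a lid that removes their ubiquitin. Interferon makes cells replace the catalytic subunits PSMB5, PSMB6 and PSMB7 by PSMB8, PSMB9 and PSMB10, which forms the immunoproteasome and alters the peptides shown to T cells.

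The cells were MDA-MB-231, an established line of triple-negative breast cancer. All of them carried a doxycycline-inducible shRNA from a lentiviral vector, either a non-silencing sequence (MB-231-shNSi) or one against DAP5 (MB-231-shDAP5), and all received 1 µg/ml doxycycline for 6 days. DAP5, encoded by EIF4G2, is an initiation factor related to eIF4G that lacks its binding site for eIF4E. Lysates were taken with cycloheximide and spread on sucrose gradients, and RNA was sequenced from 2 cultures of each line as total mRNA, as light polysomes with few ribosomes on each mRNA and as heavy polysomes with more, and for shNSi also as a moderate pool.

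Total counts were between 25899838 and 30795910 per library, and the proteasome members took between 0.597% and 1.41% of them. Levels are given as CPM, the counts scaled to a common library total, after TMM scaling over the 14 libraries. VIM, CD44, AXL and EGFR, which mark these mesenchymal cells, were detected in the total mRNA at 3960 to 5230, 187 to 624, 408 to 926 and 63.0 to 162 CPM, while ESR1, PGR, CDH1 and the leukocyte marker PTPRC each stayed at or below 0.385 CPM. The shDAP5 light libraries are titled light but carry the code that marks the moderate pool of shNSi, and the sources used here do not settle which pool they are. The shDAP5 total libraries are titled total polysome and were used as total mRNA. No library from a moderate pool of shDAP5 was analysed here under that title. With 2 cultures a group, the p-values cover no variation beyond these cultures. The edgeR test used here draws the spread of each gene towards that of all genes. Standard errors and p-values thus do not rest on a gene's own cultures alone. An exact permutation test of a single value could not go below 0.333.

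EIF4G2 was measured at 1390 and 1360 CPM in the shNSi total mRNA and at 526 and 730 CPM in the shDAP5 total mRNA. Both shDAP5 cultures were below both shNSi cultures, as their labels state. The log2 change was −1.11 (SE 0.18) with an adjusted p of 0.0172 by the quasi-likelihood test in edgeR. Every adjusted p given here is from that test, corrected by the Benjamini-Hochberg procedure over the genes tested. Without shDAP5 culture 1 the change was −0.90 and did not pass (adjusted p = 0.680). In heavy polysomes EIF4G2 changed by −0.86 on the log2 scale (adjusted p = 0.0691) and in light polysomes by −1.33 (adjusted p = 0.430), neither past the threshold of 0.05.

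Because the experiment concerns initiation, the start codons of the members on which the later comparisons turn are printed here, from GENCODE v29 transcripts on GRCh38, with the base at position −3, the start codon and the base after it in capitals. The following 6 mRNAs rose in heavy translation efficiency, the ratio of heavy polysome to total mRNA, after DAP5 silencing.
PSMB3: tacaccgcaAtcATGTctatt
PSMB6: cggaggagaAagATGGcggct
PSMB9: tgccttgcaGggATGCtgcgg
PSMD9: ccggggttcAcgATGTccgac
PSMG3: cagagccccGccATGGaagac
PSMG4: ccgtggggcGgcATGGagggg
The following 2 fell in it.
PSMD1: aggggcgcaGccATGAtcacc
PSME4: gtccctgggCtcATGGagccg
The start codons lie on the plus strand at chr17:38752827-38752829 (PSMB3), chr17:4796195-4796197 (PSMB6), chr6:32854230-32854232 (PSMB9), chr12:121888857-121888859 (PSMD9), chr6:3259023-3259025 (PSMG4) and chr2:231057026-231057028 (PSMD1), and on the minus strand at chr7:1569337-1569339 (PSMG3) and chr2:53970782-53970784 (PSME4). A strong context, with A or G at −3 and G after the start codon, was present in PSMB6, PSMG3 and PSMG4 and not in the other 5. Of the 45 members with an annotated leader long enough to read, 23 (51.1%) had it, against 45.3% of 12128 genes tested. A or G at −3 alone was present in 43 members (95.6%), against 86.1% of those genes, and PSME4 is not among the 43. These are descriptions of the annotated sequence, and the start site used in these cells was not measured.

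The question of the total mRNA comparison is whether silencing DAP5 altered the abundance of these transcripts. None of the 46 members passed the threshold, against 0.354% of 14992 genes tested. The member changes ran from −0.33 for PSMD2, the large scaffold of the base, to 0.44 for PSMD10, the oncoprotein gankyrin that helps to assemble the base, with a median of −0.04 against 0.01 for all genes. PSMD10 alone had an unadjusted p under 0.05, measured at 56.0 and 46.7 CPM in shNSi and at 70.5 and 66.6 CPM in shDAP5 (adjusted p = 0.347). DESeq2 and limma on quantile-normalized values called 0 members as well, with 1 member at an unadjusted p under 0.05 in each.

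Per length of the annotated transcript, PSMA7 of the alpha ring was the most abundant member in total mRNA at 471 CPM per kb (mean of the 4 total libraries), followed by the non-catalytic beta subunit PSMB4 and the nuclear activator subunit PSME3, both at 408. PSMA2 was the lowest detected at 6.11 CPM per kb. Class medians were 63.6 for the alpha ring, 259 for the non-catalytic and 267 for the constitutive catalytic beta subunits, 92.5 for the base ATPases, 89.3 for the lid and 38.8 for the chaperones. Subunits that occur once per ring thus differed widely in counts per annotated length. The values depend on which transcript stands for the gene and on the counting settings, which the sources used here do not give. Reads on pseudogene symbols came to at most 2.38% of a member's counts, for PSMC1 with 13 such symbols.

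Heavy polysome mRNA was compared next. After DAP5 silencing 9 members rose and 4 fell, where 14.2% of 14270 genes rose and 16.7% fell. The median change of the members was 0.50 on the log2 scale, against 0.09 for all genes. All 17 tested core members lay above 0 and 12 of the 17 members of the 19S particle lay below 0, as the plot of changes by member shows.

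**Figure D1:**
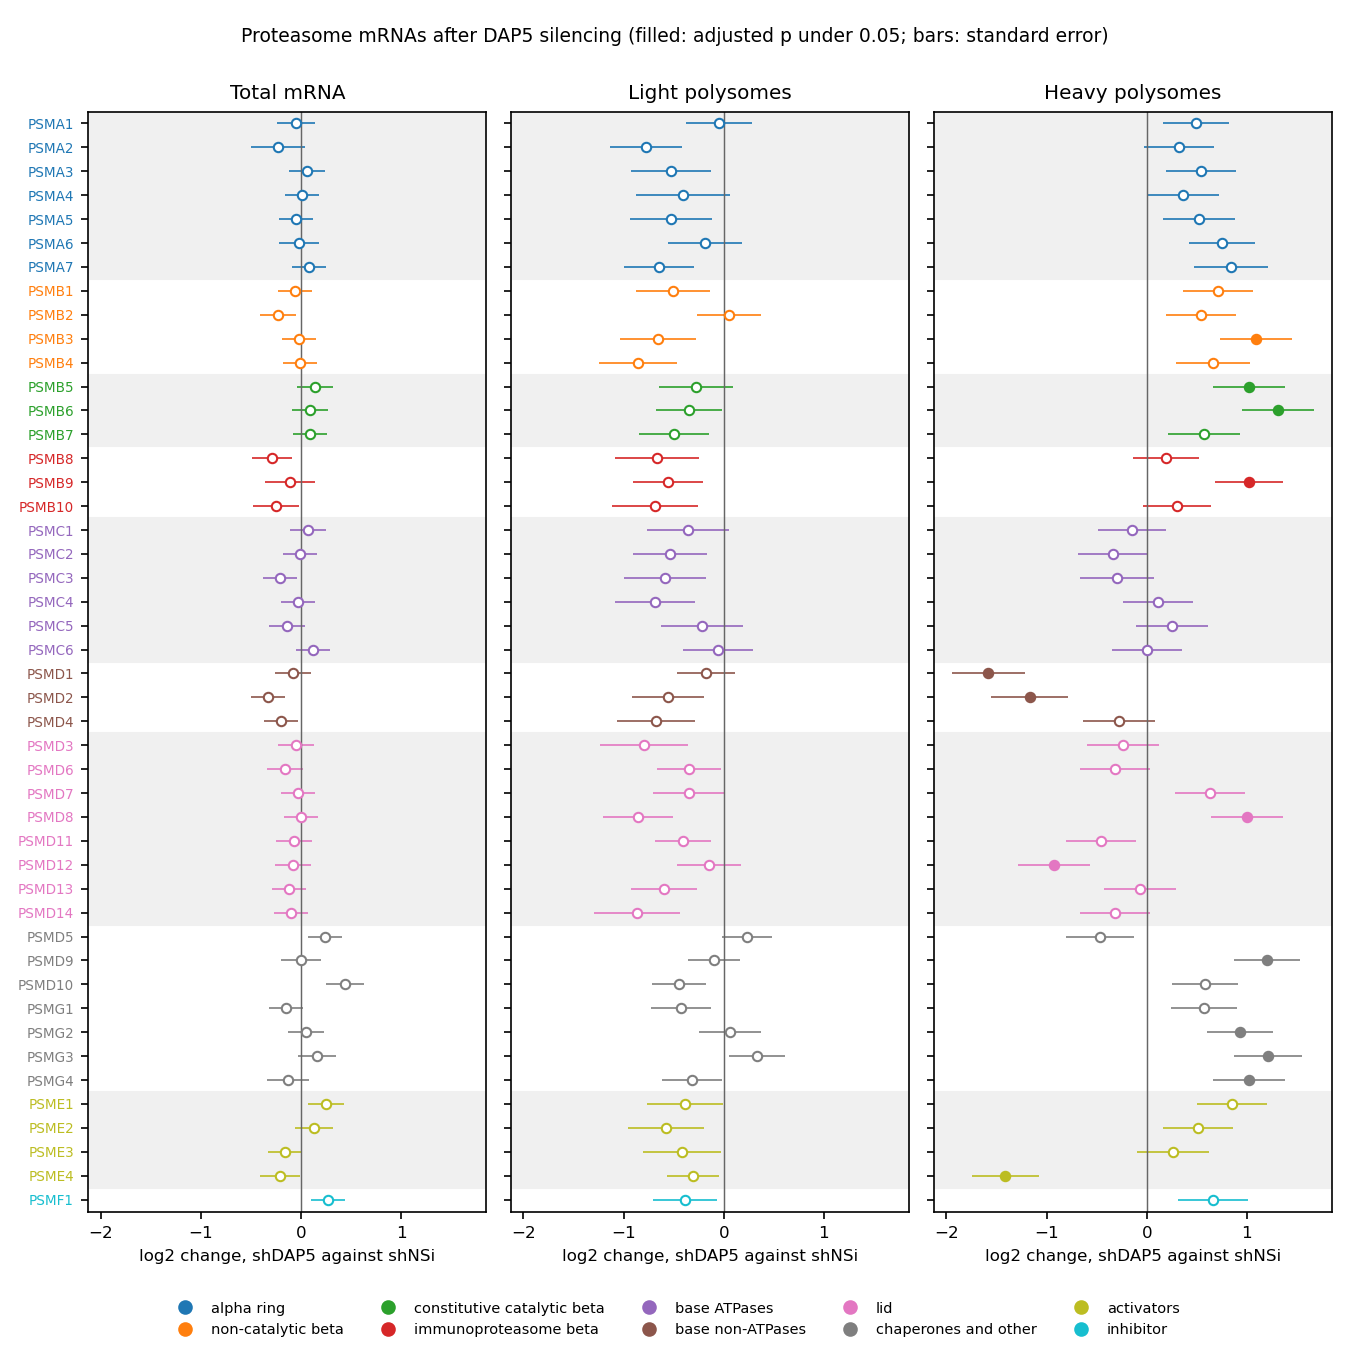
Log2 change between MB-231-shDAP5 and MB-231-shNSi for the 46 tested members (rows, coloured and banded by class) in total mRNA, light polysomes and heavy polysomes, with standard errors; filled points have an adjusted p under 0.05. Filled points occur in the heavy panel only, 9 to the right of 0 and 4 to the left, and the total mRNA values stay between −0.33 and 0.44.

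Of the core members, 4 rose in heavy polysomes. PSMB6, which carries the caspase-like active site, was measured at 166 and 154 CPM in shNSi heavy polysomes and at 281 and 417 CPM in shDAP5, a log2 change of 1.31 (SE 0.36, adjusted p = 0.00251). PSMB3, a structural beta subunit, was at 230 and 166 CPM against 299 and 445 CPM (1.09, SE 0.36, adjusted p = 0.0128). In each of these the shDAP5 cultures lay above the shNSi cultures without overlap, with shDAP5 culture 2 the higher. PSMB5, the chymotrypsin-like subunit that bortezomib binds, was at 237 and 217 CPM against 354 and 456 CPM (1.02, adjusted p = 0.0206). PSMB9, the immunoproteasome counterpart of PSMB6, was at 18.9 and 20.8 CPM against 35.2 and 35.7 CPM (1.02, adjusted p = 0.0130).

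Of the alpha ring, which forms the gate of the barrel, none passed the threshold (2 with an unadjusted p under 0.05). Its 7 tested members lay between 0.32 (PSMA2) and 0.84 (PSMA7). The beta subunits spread more widely, from 0.19 for PSMB8 and 0.30 for PSMB10, both of the immunoproteasome and below every alpha member, to the 1.31 of PSMB6. The difference between the rings was not tested.

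In the 19S particle 3 members fell and 1 rose. PSMD1, one of the base scaffolds that receive ubiquitin-binding proteins, was measured at 338 and 601 CPM in shNSi heavy polysomes and at 148 and 127 CPM in shDAP5, a log2 change of −1.58 (SE 0.36, adjusted p = 0.000311). PSMD2, the other large scaffold, was at 2030 and 2470 CPM against 785 and 971 CPM (−1.17, SE 0.38, adjusted p = 0.0128). PSMD12, a lid subunit, was at 429 and 393 CPM against 181 and 198 CPM (−0.93, adjusted p = 0.0335). All 3 had shDAP5 cultures below shNSi cultures by a gap wider, on the log2 scale, than the spread within either line. PSMD8, also of the lid, was the only one called higher of the 5 members of the particle above 0. It was at 309 and 306 CPM in shNSi and at 439 and 644 CPM in shDAP5 (1.00, adjusted p = 0.0255). The 6 ATPases PSMC1 to PSMC6, the motor of the particle, lay between −0.34 (PSMC2) and 0.25 (PSMC5), and none passed (0 with an unadjusted p under 0.05). PSMD14, the lid enzyme that cleaves ubiquitin from substrates, was at 382 and 266 CPM against 198 and 260 CPM (−0.32, adjusted p = 0.507). PSMD4, a ubiquitin receptor of the base, changed by −0.28 (adjusted p = 0.579).

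Among the chaperones 4 of 7 rose. PSMG3, which with PSMG4 guides assembly of the alpha ring, was measured at 14.9 and 21.4 CPM in shNSi heavy polysomes and at 33.2 and 40.2 CPM in shDAP5 (1.21, SE 0.34, adjusted p = 0.00328). PSMG4 was at 8.96 and 8.91 CPM against 11.6 and 20.3 CPM (1.02, adjusted p = 0.0206). PSMD9, an assembly chaperone of the base, was at 22.0 and 23.3 CPM against 37.9 and 53.2 CPM (1.20, adjusted p = 0.0033). PSMG2, which pairs with PSMG1 in the same assembly pathway as PSMG3, was the remaining one that rose (0.93, adjusted p = 0.0214). PSMD5, also a base chaperone, was the only one of the 7 below 0, at −0.47 (adjusted p = 0.292). Reads on the antisense gene of PSMD5 came to 12.9% of the member's counts and on that of PSMG3 to 3.57%, and the sources used here do not state whether the counting used strand, though the name of the count table holds the letters rev, which may stand for reverse-strand counting.

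Of the 4 activators 1 fell and none rose. PSME4, the very large nuclear activator PA200, was measured at 164 and 202 CPM in shNSi heavy polysomes and at 72.8 and 48.7 CPM in shDAP5, a log2 change of −1.41 (SE 0.33, adjusted p = 0.000515). PSME1 and PSME2, the interferon-induced subunits of PA28, were at 222 and 177 against 284 and 350 CPM and at 194 and 225 against 239 and 287 CPM. Their changes were 0.85 (adjusted p = 0.0526) and 0.51 (adjusted p = 0.256), and that of PSME3 was 0.26 (adjusted p = 0.607). PSMF1, an inhibitor of the core, changed by 0.66 (adjusted p = 0.135).

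These counts depended on the scaling, on which cultures and on which control pool entered. Library size scaling gave 12 higher and 3 lower (25.5% of all genes called in either direction), and limma 19 higher and 3 lower (28.4%). Without shDAP5 culture 2 the number of members called in heavy polysomes was 0 (9 with an unadjusted p under 0.05 in edgeR), where 0.0134% of all genes were called. It was 8 without shDAP5 culture 1 (19.9% of all genes), 6 without shNSi culture 1 (23.7%) and 5 without shNSi culture 2 (14.1%). With the shNSi moderate pool as the control in place of the heavy pool 0 members were called (1 with an unadjusted p under 0.05) and 0.344% of all genes, the median turned to −0.17, and PSMB6 was at −0.18 and PSMD1 at 1.04.

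Heavy translation efficiency relates the heavy polysome level of each culture to its own total mRNA, and its change with the shRNA was tested as an interaction. It shares the heavy libraries with the comparison above, so they are not independent of each other. In it 6 members rose, where 4.85% of 15374 genes rose, and 2 fell, where 8.23% fell. The median of the members was 0.45 against 0.09 for all genes.

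**Figure D2:**
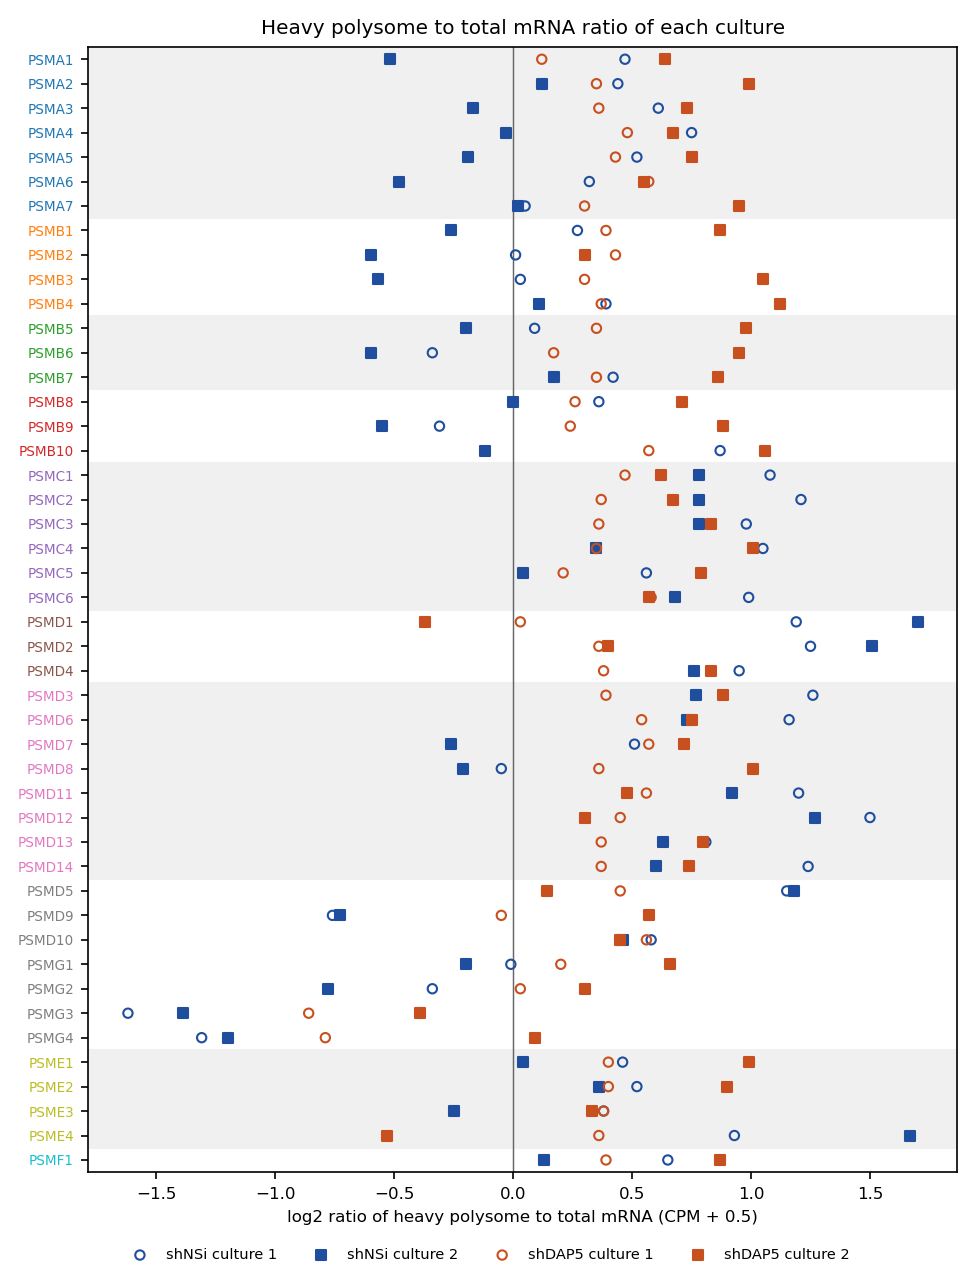
Heavy polysome level over total mRNA level on the log2 scale, from CPM plus 0.5, for each tested member (rows, banded by class) in each of the 4 cultures. For PSMB6 both shDAP5 points lie right of both shNSi points, for PSMD1 and PSME4 both lie left of them, and for 22 of the 46 members the lines overlap.

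The log2 ratios of the individual cultures carried these calls. PSMB6 was at −0.34 and −0.60 in shNSi and at 0.17 and 0.95 in shDAP5, which the interaction fit gave as a change of 1.18 (SE 0.35, adjusted p = 0.0241). PSMB9 was at −0.31 and −0.55 against 0.24 and 0.88 (1.15, adjusted p = 0.0273), and PSMB3 at 0.03 and −0.57 against 0.30 and 1.05 (1.09, adjusted p = 0.0362). In all 3 beta subunits the ratio went from around or below 0 to above 0.

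PSMD9 was at −0.76 and −0.73 in shNSi and at −0.05 and 0.57 in shDAP5 (1.16, adjusted p = 0.0239). PSMG3 was at −1.62 and −1.39 against −0.86 and −0.39 (1.04, adjusted p = 0.0373), and PSMG4 at −1.31 and −1.20 against −0.79 and 0.09 (1.09, adjusted p = 0.0394). The 2 small chaperones of the alpha ring were the members least represented in heavy polysomes in control cells, and PSMG3 stayed below its total mRNA level in both shDAP5 cultures.

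PSMD1 was at 1.19 and 1.70 in shNSi and at 0.03 and −0.37 in shDAP5 (−1.47, SE 0.35, adjusted p = 0.00824). PSME4 was at 0.93 and 1.67 against 0.36 and −0.53 (−1.24, SE 0.35, adjusted p = 0.0198). PSMD2, at 1.25 and 1.51 against 0.36 and 0.40, also did not overlap, but its change of −0.85 missed the threshold (adjusted p = 0.120). PSMD12, PSMD8 and PSMD5 were at −0.87, 0.96 and −0.73, with adjusted p of 0.0764, 0.0629 and 0.132.

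Counted by overlap alone, both shDAP5 cultures lay above both shNSi cultures for 15 members, where 25.5% of all genes did so, and below them for 9, where 33.8% did. The 15 included 8 of the 17 core members, and the 9 included 7 of the 17 members of the 19S particle. The median change was 0.64 for the core and −0.16 for the 19S particle. The core median stayed above 0 under library size scaling (0.86), DESeq2 (0.58) and limma (0.82), while that of the 19S particle was at 0.05, −0.22 and 0.07. Library size scaling without TMM moved the median of all genes in this comparison from 0.09 to 0.30, and relative to that median the core was 0.55 higher and the 19S particle −0.25 in both cases.

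The number called again rested on single cultures and on the scaling. DESeq2 gave 3 higher and 4 lower (10.9% of all genes called in either direction), limma 7 higher and 1 lower (9.15%), and library size scaling 0 (21 with an unadjusted p under 0.05), as for all genes. The number was 16 without shDAP5 culture 1 (28.5% of all genes), 2 without shNSi culture 1 (3.59%), and 0 without shNSi culture 2 (5 with an unadjusted p under 0.05) or without shDAP5 culture 2 (10 with an unadjusted p under 0.05). All genes called came to 0.025% and 0.27% in these last settings. Against the shNSi moderate pool 0 members were called (1 with an unadjusted p under 0.05), the core median was −0.29, and PSMD1 was at 1.20 and PSME4 at 0.74. Against the heavy and moderate pools summed 0 members were called (0 with an unadjusted p under 0.05), and the medians of the core and the 19S particle were 0.19 and 0.09.

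The members differ strongly in the length of their coding sequence, and the change in heavy translation efficiency went with it. Coding sequences were 606 to 834 nt long in the core (median 747) and 933 to 2862 nt in the 19S particle (median 1257), against a median of 1416 nt over 12477 genes. PSMG3 and PSMG4 have the shortest of all members at 369 and 372 nt, and PSME4 the longest at 5532 nt. Spearman's rho between coding length and the change was −0.82 over the 46 members, and −0.71 over all genes with a length. These are correlations across genes measured in the same libraries, so they are descriptions. In total mRNA they were −0.23 and −0.11.

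**Figure D3:**
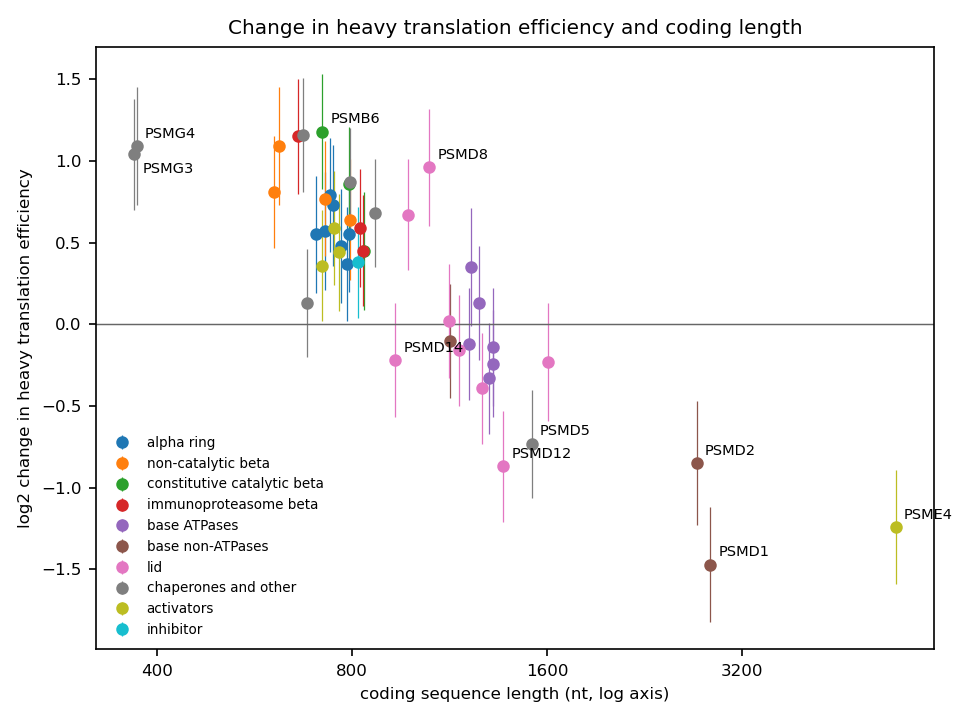
Change in heavy translation efficiency (log2, with standard error) of the 46 members against the length of their coding sequence (nt, log axis), coloured by class. Members under 1000 nt lie above 0 except PSMD14 at −0.22, and PSMD2, PSMD1 and PSME4, the longest, lie at −0.85, −1.47 and −1.24.

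Of 29 members shorter than 1000 nt, 28 lay above 0 with a median of 0.64, and of 17 longer ones 13 lay below 0 with a median of −0.23. Length went across the classes. Of the 6 chaperones and related factors above 0, PSMG1, PSMG2, PSMG3, PSMG4 and PSMD9 lay between 0.68 and 1.16, within the range of the core, while PSMD10 (681 nt) at 0.13 lay below every core member (lowest 0.37, PSMA4). PSMD5 (1515 nt) and PSME4 lay below 0, as the base scaffolds did. PSMD8 (1053 nt) at 0.96 was the highest of the longer members. When offsets for coding length were fitted in each library, the core median was 0.17 and that of the 19S particle −0.22, no member rose and 1 fell, where 3.46% of all genes were called. In heavy polysome mRNA the same offsets left 2 members called, both lower (11.6% of all genes in either direction), and a member median of −0.02.

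The position of the mRNAs along the gradient in control cells was examined next. In shNSi, 18 members were higher in heavy than in light polysomes (33.8% of all genes were) and 6 were lower (31.9%). The 6 were PSMB6, PSMB9, PSMD9, PSMG2, PSMG3 and PSMG4. PSMG4 was measured at 54.6 and 33.3 CPM in light polysomes and at 8.96 and 8.91 CPM in heavy polysomes (−2.34, SE 0.27, adjusted p = 9.64e-06). PSMD2 was at 197 and 364 CPM in light and at 2030 and 2470 CPM in heavy polysomes (2.98, SE 0.39, adjusted p = 2.08e-05). Of the 19S members 14 were higher in heavy polysomes, and of the core members 0 were, with or without adjustment in edgeR. The 2 cultures disagreed on the core. In culture 1 its median log2 ratio to total mRNA was −0.39 in light and 0.36 in heavy polysomes. In culture 2 it was 0.35 and −0.19. For the 19S particle the heavy pool was higher in both cultures (−1.5 and 1.08, then −0.49 and 0.76). Library size scaling, which moved the median of all genes from −0.06 to −0.54, gave 16 members higher and 11 lower, where 69.4% of all genes were called in either direction.

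The labels give shNSi a moderate pool as well. Against heavy polysomes 14 members were higher in it (12.9% of all genes) and 5 lower (23.1%), and against light polysomes 22 were higher (12.4%) and 2 lower (14.7%). Without shNSi culture 2, 38 members were called against light polysomes (16.7% of all genes). With 1 culture left, each pool had 1 library, and the spread came from the shDAP5 libraries in the same fit, on the assumption that shNSi varies alike. With both cultures, library size scaling gave 24 higher and 3 lower against heavy polysomes (46.1%). CPM is relative within a library, so the amount of an mRNA in each pool was not measured.

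By the mean CPM of the 2 cultures, 27 members were highest in the moderate pool, 16 in the heavy and 3 in the light pool. All 17 core members were among the 27. In culture 1, 16 of them were highest in the moderate pool and in culture 2, 15, with 2 higher in the light pool there. The 19S particle had 14 of its 17 members highest in heavy polysomes by this mean, but the 2 cultures disagreed. In culture 1, 15 of the 17 were highest in the heavy pool, and in culture 2 only 4 were, with 13 highest in the moderate pool. The ATPase PSMC3, for example, was at 891 CPM in the moderate and 801 CPM in the heavy pool of culture 2, and PSMD14 at 373 and 266 CPM. The median log2 ratio of the 19S particle to total mRNA was −0.01 in the moderate and 1.08 in the heavy pool of culture 1, and 0.87 and 0.76 in those of culture 2. PSMB6 was at 439 and 354 CPM in the moderate pool, above its 166 and 154 CPM in the heavy pool (1.37, adjusted p = 0.00342), and overlapping its 281 and 417 CPM in the shDAP5 heavy pool. PSMD1 was at 42.8 and 92.3 CPM in the moderate pool, far below its 338 and 601 CPM in the heavy pool (−2.78, adjusted p = 4.66e-05).

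**Figure D4:**
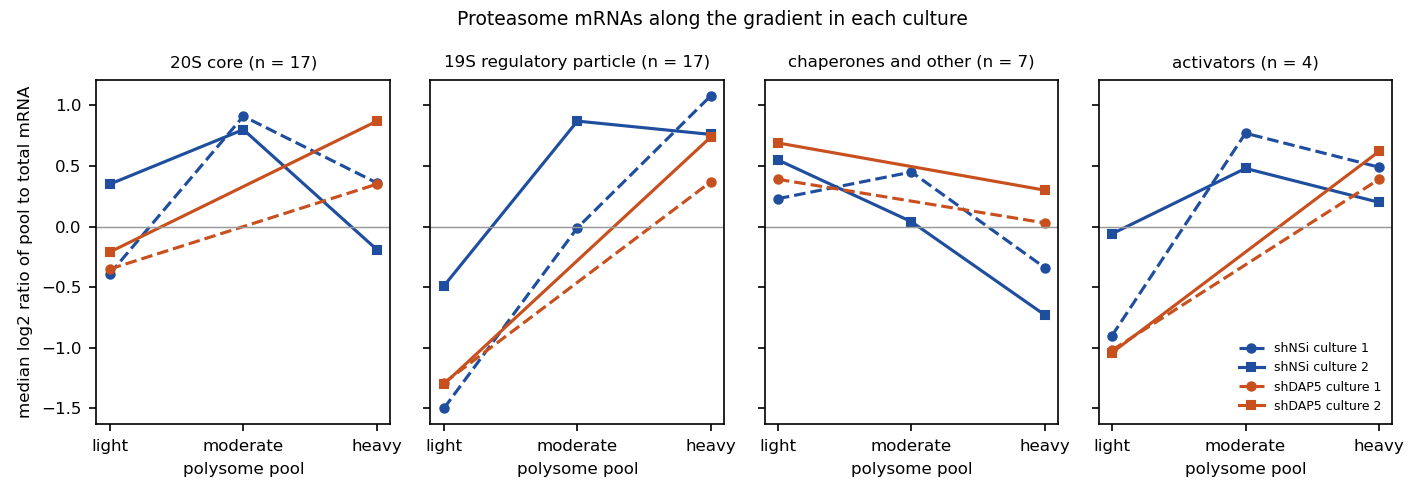
Median log2 ratio of each polysome pool to total mRNA for 4 groups of members, drawn for each culture; shDAP5 has light and heavy libraries only, joined by a straight line. In shNSi the core peaks in the moderate pool at 0.91 and 0.80, the 19S particle peaks in the heavy pool in culture 1 and in the moderate pool in culture 2, and in shDAP5 the core is at 0.35 and 0.87 in the heavy pool.

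In shDAP5, 36 members were higher in heavy than in light polysomes (25.9% of all genes) and 2, PSMG3 and PSMG4, were lower (24.8%), with a median of 1.25. All 17 members of the 19S particle and 13 of the 17 core members were among the 36. Without shDAP5 culture 1, 25 members were called (19.8% of all genes), and without shDAP5 culture 2, 19 (19.4%), with 1 library per pool and the spread taken from the shNSi libraries. The difference between the lines in this ratio was tested itself. It was higher in shDAP5 for PSMB9 (1.48, SE 0.42, adjusted p = 0.0389) and PSMD8 (1.69, SE 0.51, adjusted p = 0.0493), where 1.54% of 15878 genes were, and lower for PSMD1 (−1.47, SE 0.44, adjusted p = 0.0464), where 5.21% were. The median of the members was 0.76, and it was −0.04 without shNSi culture 2 and 1.24, with 29 members called, without shNSi culture 1, where 17.8% of all genes were called. Library size scaling called 8 members, all higher (10.3% of all genes in either direction). With shDAP5 culture 1 left out 1 member was called (4.79% of all genes), and with shDAP5 culture 2 left out 0 (1 with an unadjusted p under 0.05; 0.0121% of all genes called).

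Light polysome mRNA showed no member past the threshold, where 0% of 15529 genes passed. The members lay lower in shDAP5 in 42 of 46 cases with a median of −0.43 against −0.01 for all genes, and 1 had an unadjusted p under 0.05 (4 in DESeq2 and 0 in limma, which called 0 as well). Light translation efficiency likewise had 0 members called, where 0% of 15967 genes were, with a median of −0.28 and 4 members at an unadjusted p under 0.05 (6 in DESeq2, 4 in limma, both with 0 called).

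The shNSi light and moderate libraries disagreed between cultures on these mRNAs. In light polysomes culture 2 was above culture 1 for 43 of 46 members, by a median of 0.87 on the log2 scale, while the median over all genes was −0.01. In the moderate pool the median difference was 0.16, but it ran from −1.19 for PSMB2 to 1.44 for PSMC1, and the 19S median there moved from −0.01 to 0.87. In the other groups the median difference between cultures lay between −0.17 and 0.31, and single members between −0.73 and 0.83. PSMA4, in turn, was at 133 and 380 CPM in shNSi light polysomes and at 156 and 233 CPM in shDAP5. Without shNSi culture 1, 34 members were called lower and 0 higher in light polysomes, where 16.3% of all genes were lower and 12.6% higher. In light translation efficiency it gave 29 lower (7.51% of all genes) and 1 higher (4.82%). Without shNSi culture 2 the medians were 0.10 and 0.05 with 0 called (6 and 8 with an unadjusted p under 0.05). Against the moderate pool, whose code the shDAP5 light libraries carry, 32 members were called lower in light polysomes, where 13% of all genes were, and 2 higher, where 12.6% were. The moderate libraries disagree between cultures as given above.

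The immunoproteasome was compared with its constitutive counterpart in each library, per length of transcript. PSMB8 stood at 34.9% and 44.1% of PSMB5 in shNSi total mRNA and at 29.0% and 30.2% in shDAP5. In heavy polysomes it stood at 42.2% and 50.8% against 27.3% and 25.1%. The shDAP5 cultures were below the shNSi cultures in both, but with 2 cultures an exact permutation test cannot reach the threshold, and PSMB8 itself did not pass in total mRNA (−0.29, adjusted p = 0.629) or in heavy polysomes (0.19, adjusted p = 0.681). Reads on the antisense gene of PSMB8 came to 5.65% of its counts.

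PSMB9 stood at 12.2% and 14.2% of PSMB6 in shNSi total mRNA and at 13.0% and 9.70% in shDAP5, which overlap. PSMB10 stood at 3.97% and 4.44% of PSMB7, the trypsin-like subunit, against 3.61% and 3.01%. In heavy polysomes both overlapped, PSMB9 at 12.4% and 14.6% of PSMB6 against 13.7% and 9.31%, and PSMB10 at 5.48% and 3.61% of PSMB7 against 4.25% and 3.53%. The constitutive subunits thus made up most of the catalytic mRNA in every library, with PSMB7 at 336 and 361 CPM in shNSi total mRNA and 375 and 356 CPM in shDAP5.

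**Figure D5:**
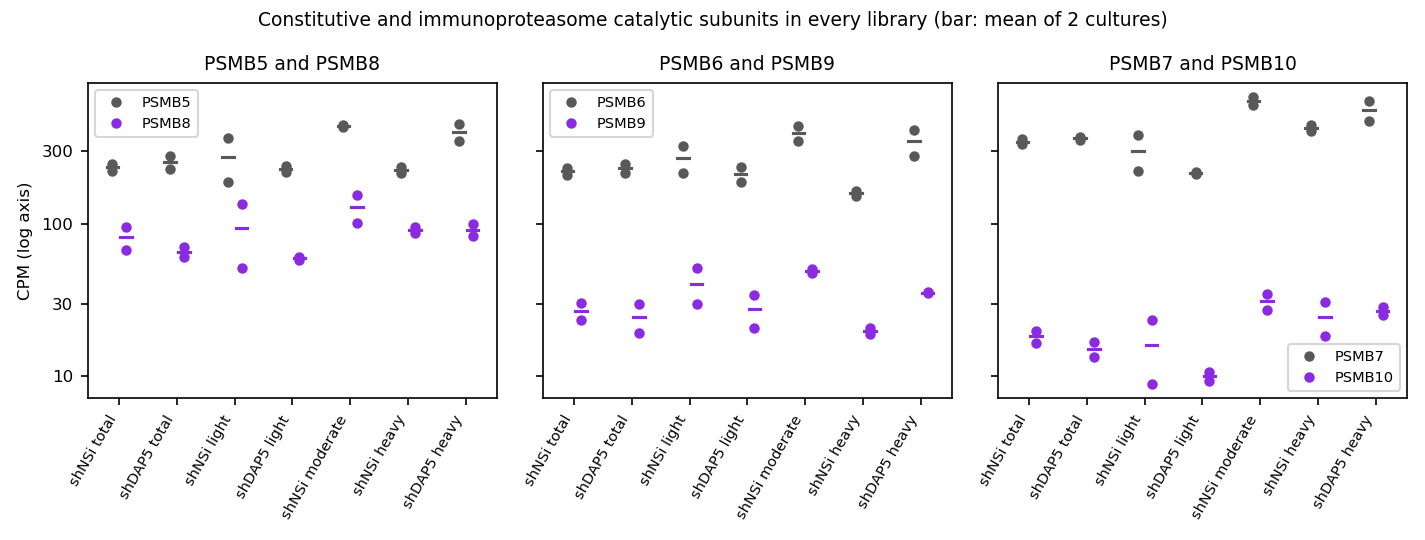
CPM (log axis) of each constitutive catalytic subunit and its immunoproteasome counterpart in the 7 groups of libraries; points are cultures and bars the mean of 2. The immunoproteasome subunit lies below its counterpart in every group, and PSMB6 and PSMB9 are both higher in shDAP5 than in shNSi heavy polysomes.

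Genes that work with the proteasome, outside the symbol rule, were counted in heavy translation efficiency, where 4.85% of all genes rose and 8.23% fell. The counts are a description of these lists. Of 11 partners 1 rose and 2 fell: SEM1, a very small lid subunit, rose by 0.96 (adjusted p = 0.0485), and the proteasome deubiquitinase USP14 (−1.14, adjusted p = 0.0230) and the scaffold KIAA0368 (−1.15, adjusted p = 0.0254) fell. POMP, the maturation factor of the core, was at 0.97 (adjusted p = 0.0526). Among genes for ubiquitin and its activation RPS27A, which encodes ubiquitin fused to a ribosomal protein, rose by 1.29 (adjusted p = 0.0228), and UBA6, a ubiquitin-activating enzyme, fell by 1.73 (adjusted p = 0.00918).

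Of 9 shuttle factors and p97 components 0 rose and 2 fell, with VCP, the p97 ATPase, the lowest at −1.44 (adjusted p = 0.0124). None of the 4 regulators of proteasome genes passed (2 with an unadjusted p under 0.05), with NFE2L1, the factor that raises proteasome gene expression when activity is low, at −0.83 (adjusted p = 0.0997) and NFE2L2 at 0.21. In heavy polysome mRNA, given here for this list only, 2 of the 4 fell, where 16.7% of all genes fell. NFE2L1 fell by 1.56 (adjusted p = 0.000439) and DDI2, the protease that cleaves NFE2L1 for its activation, by 0.99 (adjusted p = 0.0147). In total mRNA they were at −0.67 (adjusted p = 0.166) and −0.26 (adjusted p = 0.734). Their coding sequences are 2319 and 1200 nt long. Over all genes Spearman's rho between coding length and the heavy polysome change was −0.65. How far abundance or length entered these 2 falls was not tested. None of the 9 subunits of the COP9 signalosome, built on the plan of the lid, passed (3 with an unadjusted p under 0.05), between −0.63 (COPS4) and 0.84 (COPS8).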

How the data were processed

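RNA from 14 libraries of MDA-MB-231 cells was sequenced. The authors deposited whole-number read counts per gene symbol, without normalization. STAR 2.6.0a, limma and hg19 are named in the submitters' processing notes, without a role, and the name of the deposited count table points to featureCounts, whose settings are not given in the sources used here. Gene positions, lengths and start codons came from GENCODE v29 on GRCh38, with 1 coding transcript per symbol (the choice ranked by completeness, then APPRIS, then length), and 37621 symbols matched. The table has no coordinates. Its counts, for which the notes name hg19, were joined by symbol to these lengths, so per-length levels and length offsets combine 2 annotations.

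Low counts were removed by filterByExpr and TMM factors set the scale. The main test was glmQLFTest of edgeR 4.0.16 (quasi-likelihood, robust, R 4.3.3), with Benjamini-Hochberg adjustment over all genes tested and a threshold of 0.05. Each fraction had a fit of its own 4 libraries. Translation efficiency and the heavy-to-light ratio were tested as the interaction of fraction and shRNA in 8 libraries, with a term for each culture. Contrasts of fractions within a line used all its libraries with a term for each culture. Log2 ratios used CPM plus 0.5. The smallest library total was 25899838 counts, with 2 cultures per group.

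The members, classes and gene lists were chosen with earlier results of these data known. Named were the lowest and highest member of each class in heavy translation efficiency, PSMB5 to PSMB10, PSME1, PSME2, the 3 longest and 3 shortest coding sequences, EIF4G2, any member called in total mRNA or a light comparison, and the lowest and highest of each other list (some of these are not reported here); further members and genes, such as those called in heavy polysomes, were named after their values were seen. Alternatives were library size scaling, DESeq2 1.42.0, no filter, at least 10 counts in every library, limma 3.58.1 on quantile-normalized log2(CPM + 1), the replicate block, all 14 libraries in 1 fit, the moderate pool as a control, coding length offsets and each culture left out in turn. The crossed replicate block, and the fit used when a culture was left out of the fraction contrasts (all remaining libraries of both lines), were chosen after seeing the data. Where leaving out a culture left 1 library in a group, that library was assumed to vary like the other line.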

Additional observations from a re-analysis of the deposited data

Results flagged for a closer look

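For 8 members the change from total to heavy polysome mRNA differed between the lines by a test of the difference itself, where 4.85% of all genes were higher in shDAP5 and 8.23% lower. On the log2 scale these interactions were 1.09 for PSMB3, 1.18 for PSMB6, 1.15 for PSMB9, 1.16 for PSMD9, 1.04 for PSMG3 and 1.09 for PSMG4, and −1.47 for PSMD1 and −1.24 for PSME4. The 6 that rose have coding sequences shorter than 1000 nt, and PSMD1 and PSME4 have the longest of all members. With offsets for coding length 1 member was called in this comparison, lower, where 3.46% of all genes were called. With the shNSi moderate pool in place of heavy, or with these pools summed, 0 members and 0 other genes were, and against the moderate pool PSMD1 was at 1.20 and PSME4 at 0.74.

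For 3 members the change from light to heavy polysomes differed between the lines, at 1.48 for PSMB9, 1.69 for PSMD8 and −1.47 for PSMD1. Over all genes 1.54% were called higher and 5.21% lower, so the number of members called is near that share. With offsets for coding length, 0 members were called in this comparison (0.802% of all genes), with the moderate pool in place of heavy 0 (0%), and with the moderate pool in place of light 35 were, where 23.9% of all genes were called. Which pool the shDAP5 light libraries are is not settled by the sources used here.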

How the results depend on the processing

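Each group had 2 cultures, and no setting varied the depth. Shares in brackets are of all genes, called in either direction. Of the members, none was called in total mRNA under any alternative run. In heavy polysome mRNA 13 members were called (30.9%), against 22 by limma (28.4%), 7 in 1 fit of 14 libraries (23.7%), 0 with the moderate pool as control (0.344%), 0 with moderate and heavy summed (2.77%) and 2 with coding length offsets (11.6%), and 0 to 8 with 1 culture left out (0.0134% to 23.7%). In heavy translation efficiency 8 were called (13.1%), against 0 by library size (0%), 1 with the replicate block (4.48%), 0 with the moderate pool (0%), 0 with the summed pools (0%) and 1 with length offsets (3.46%), and 0 to 16 with 1 culture left out (0.025% to 28.5%). In light polysomes and light translation efficiency 0 were called, against 34 (25.5%) and 33 (27.5%) with the moderate pool in place of light, and 0 to 34 (0.0125% to 28.9%) and 0 to 30 (0% to 12.3%) with 1 culture left out. For the heavy-to-light ratio 3 were called (6.75%), against 8 by library size (10.3%), 7 by DESeq2 (10.6%), 5 without a filter (5.31%), 5 at 10 counts or more (11.1%), 0 with the replicate block (4.9%), 0 with moderate in place of heavy (0%), 0 with the summed pools (0%), 35 with moderate in place of light (23.9%) and 0 with length offsets (0.802%), and 0 to 29 with 1 culture left out (0.0121% to 17.8%). Without the replicate block, 10 (18.1%) in place of 19 (36%) members were called between moderate and heavy and 0 (0%) in place of 24 (27.1%) between moderate and light in shNSi. With 1 culture left out, 18 to 38 were called between moderate and light in shNSi (16.7% to 18.3%), and 19 to 25 (19.4% to 19.8%) in place of 38 (50.7%) between heavy and light in shDAP5. The cause of these differences was not tested.

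Library size scaling shifted the median of all genes from 0.09 to 0.34 in heavy polysomes, from 0.05 to 0.29 in the heavy-to-light ratio, from −0.06 to −0.54 in shNSi heavy against light and from 0.10 to 0.45 in moderate against heavy. Replicate numbers tie shNSi to shDAP5 cultures by number only. Deviations of same-numbered cultures correlated at −0.1149 in total mRNA, 0.0579 in heavy and 0.0502 in light polysomes, −0.2703 and 0.0069 in heavy and light translation efficiency and −0.1957 in the heavy-to-light ratio. With the replicate block crossed, 20 members were called in heavy translation efficiency (26.9%) and 7 in the heavy-to-light ratio (14.1%).

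With the moderate pool in place of heavy, heavy polysome mRNA turned to −0.30 for PSMB3, −0.12 for PSMB5, −0.18 for PSMB6, −0.46 for PSMB9, −0.28 for PSMD8, −0.11 for PSMG4, 1.04 for PSMD1, 0.42 for PSMD2 and 0.57 for PSME4. Heavy translation efficiency turned to −0.35 for PSMA4, −0.22 for PSMA6, −0.24 for PSMB2, −0.31 for PSMB3, −0.18 for PSMB4, −0.26 for PSMB5, −0.29 for PSMB6, −0.30 for PSMB7, −0.18 for PSMB8, −0.33 for PSMB9, −0.07 for PSMC5, −0.31 for PSMD8, −0.15 for PSME1, −0.22 for PSME2, −0.08 for PSMF1, −0.01 for PSMG4 and −0.44 for EIF4G2, and to 0.16 for PSMC2, 1.20 for PSMD1, 0.19 for PSMD12, 0.90 for PSMD2, 0.11 for PSMD4, 0.04 for PSMD5 and 0.74 for PSME4. With length offsets it turned to −0.10 for PSMA4, −0.17 for PSME2 and −0.05 for PSMF1. PSMD4 turned to 0.11 by library size, 0.13 by limma, and 0.10 with the summed pools, and EIF4G2 to −0.06 with the summed pools. With 1 culture left out PSMD4 was between −0.36 and 0.15, the latter without shDAP5 culture 1, and PSMA4 between −0.02 and 0.72, the former without shNSi culture 2. EIF4G2 in total mRNA stayed below 0 throughout, at −1.07 (adjusted p = 0.0501) by library size, −1.13 (0.443) in 1 fit of 14 libraries and −1.08 (0.0518) with length offsets, and between −1.37 and −0.90 with 1 culture left out, by edgeR's quasi-likelihood test.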
